A study of Rattus norvegicus with 24 samples.

Results

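Ephx2 encodes soluble epoxide hydrolase, and its messenger RNA was followed across the arrays of a rat hypertension study. The member was chosen as every probe set (a group of short probes read as 1 value) whose single gene symbol in the array annotation is Ephx2. This rule found 1 probe set, 1369663_at, of 31042 without controls, for 1 gene of 14217, and the annotation ties it to the transcript NM_022936. The study set the spontaneously hypertensive rat, SHR, against WKY, the Wistar-Kyoto control strain of normal blood pressure. Each of the 24 arrays was hybridised with RNA of 5 pooled male rats aged 10 to 13 weeks (10 to 12 weeks for SHR NIL 2). The rostral ventrolateral medulla (RVLM) was represented by 5 arrays in each strain. From SHR there were also 4 arrays of the supraoptic nucleus (SON), 5 of the pituitary's neurointermediate lobe (NIL) and 5 of the hypothalamic paraventricular nucleus (PVN). No treatment is named for any group. Only the RVLM was measured here in both strains, and WKY arrays from elsewhere were not analysed here.

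Soluble epoxide hydrolase has a carboxy-terminal domain that opens epoxides to diols and an amino-terminal domain that acts as a lipid phosphatase. Its best known substrates are the epoxyeicosatrienoic acids (EETs), which cytochrome P450 epoxygenases make from arachidonic acid and which relax blood vessels, in part by opening calcium-activated potassium channels. The enzyme ends their action by turning them into less active diols. It is found in the cytosol and in peroxisomes, and in brain it occurs in neurons and in glia.

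The structures carried the markers of their labels. The adrenaline-synthesis gene Pnmt was 113 to 251 in the RVLM arrays of both strains and at most 16.5 elsewhere. The melanotroph precursor Pomc was 611 to 1243 in the NIL and at most 16.2 elsewhere, and Avp, the vasopressin gene, was at least 3893 in every PVN and SON array. The array labelled SHR PVN 3 stood apart from the other 4 PVN arrays. The corticotropin-releasing hormone gene Crh was 38.1 on it, against 393 to 514 on the others and 14.6 to 19.6 in the SON. Its summed intensity of 12 meningeal and choroid plexus markers was 11482, against 972 to 1202 on the other PVN arrays and 7960 to 13033 in the SON. Other values did not match the SON: Th, the tyrosine hydroxylase gene, was 149 on it and 425 to 524 in the SON, and its summed intensity of 14 oligodendrocyte markers was 11761, against 6370 to 7147 in the SON and 4541 to 5886 on the other PVN arrays. The label of this array is therefore in doubt, and whether it is right was not tested. Ephx2 differences that use the PVN are given with and without it. Array medians of intensity ran from 35.9 to 46.5, and precision is limited by how many arrays each group has.

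Ephx2 was bright in every SHR structure and dim in WKY, with 1 array against its label. The 5 WKY RVLM arrays had intensities of 5.39, 3.12, 19.6, 21.1 and 15.7, in the order of their numbers. The 5 SHR RVLM arrays had 126.6, 128.2, 131.4, 98.2 and 106.1. Every SHR RVLM array was above every WKY array, and the highest WKY value was well under the lowest SHR value. The SHR NIL arrays had 104.3, 120.9, 108.5, 105.8 and 95.8, a narrow band that overlaps the SHR RVLM. The SHR SON arrays had 147.5, 139.6, 122.4 and 145.3, all above the NIL arrays. The SHR PVN arrays numbered 1, 2, 4 and 5 had 133.9, 109.2, 100.4 and 111.3, within the range of the other SHR structures. SHR PVN 3 had 19.9, inside the WKY range of 3.12 to 21.1.

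**Figure D1:**
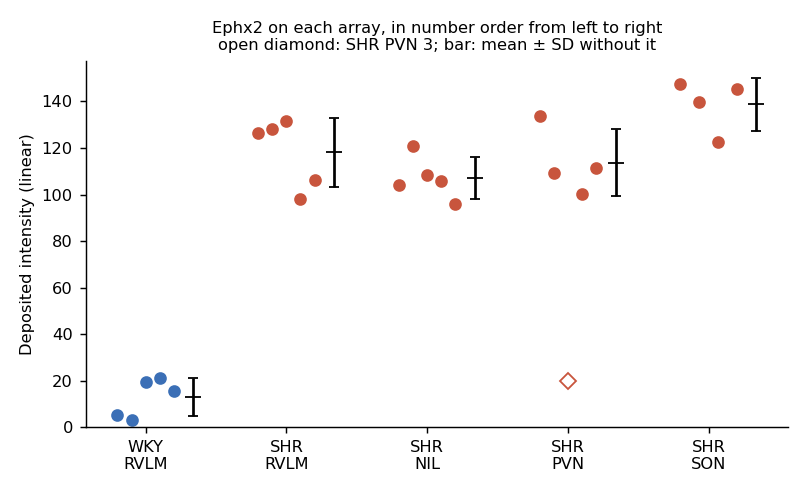
Deposited linear intensity of Ephx2 on each of the 24 arrays by strain and structure, with each group's mean and SD beside its points (SHR PVN 3, the open diamond, is left out of the PVN mean). The 5 WKY points lie at 21.1 or lower, 18 SHR points lie at 95.8 or higher, and SHR PVN 3 lies at 19.9.

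The position of Ephx2 within each array, which needs no scaling between arrays, showed the same split. Ephx2 exceeded 8.96% to 35.7% of all probe sets on the WKY arrays and 68.6% to 78.7% on the 18 SHR arrays other than SHR PVN 3, where it exceeded 33.8%. Group means of the intensity were 138.7 ± 11.4 (SD, n = 4) in the SON, 118 ± 14.9 (n = 5) in the SHR RVLM and 107 ± 9.09 (n = 5) in the NIL. The PVN mean was 94.95 ± 43.7 (n = 5) with all arrays and 114 ± 14.25 (n = 4) without SHR PVN 3. The mean in the WKY RVLM was 13.0 ± 8.25 (n = 5).

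The strain comparison within the RVLM asked whether the hypertensive and the normotensive rats differ in a region that drives sympathetic outflow to blood vessels. Ephx2 was higher in SHR by 3.50 on the log2 scale (95% confidence interval 2.62 to 4.38, limma adjusted p = 8.82e-05). Calls by limma at an adjusted p under 0.05 covered 1.58% of the 18625 probe sets tested, and 0.73% were called higher in SHR. The arrays of the strains did not overlap on 3.24%. Whether the WKY values lie above background is not known, because detection calls were not found, so this difference and its interval may be set against a background level. Ephx2 has 1 probe set and its probe sequences were not available, so whether it binds the RNA of both strains equally was not tested. In size the difference ranked 1 of the probe sets tested and 4 of 31042 when low probe sets were kept, and the rank fell when a constant was added to the intensities. By p-value it ranked 42, and its log2 values spread more in WKY (SD 1.27) than in SHR (SD 0.16). Since the strains did not overlap, the exact two-sided permutation test of the mean log2 values could only give its smallest p for 5 against 5 arrays, 0.00794, and adds nothing to that.

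The size of the difference depended on how low values were treated. The WKY mean of 3.36 on the log2 scale lay under the filter value of 4.67, so Ephx2 entered the test through its SHR arrays. With 16 or 64 added to every intensity before the log2 step the difference was 2.23 or 1.23 (limma adjusted p = 4.7e-07 and 4.63e-08; over all alternatives 4.63e-08 to 0.00104), and it then ranked 3 or 9 by size.

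Within SHR the comparison of structures asked whether the high level is shared by the pituitary lobe, both hypothalamic nuclei and the medulla. The order of the mean intensities was SON, RVLM, PVN and NIL without SHR PVN 3, and SON, RVLM, NIL and PVN with it. None of the neighbours in either order differed by a called amount. With all 19 SHR arrays, 0 of the 6 pairs of structures passed the limma test, and the pair of PVN and SON alone had an unadjusted p under 0.05. In these 6 comparisons limma called 14.7% (PVN against SON) to 66.3% (RVLM against NIL) of the probe sets. The RVLM minus SON difference was −0.16 on the log2 scale (95% confidence interval −0.86 to 0.55, adjusted p = 0.735, 45% called), and the RVLM minus NIL difference was 0.23 (−0.44 to 0.89, adjusted p = 0.545). The RVLM minus PVN difference was 0.61 (−0.06 to 1.27, adjusted p = 0.132, 44.2% called). It became 0.12 (−0.16 to 0.40, adjusted p = 0.489) without SHR PVN 3 and was called without SHR PVN 1 (0.84, adjusted p = 0.0359; over all alternatives 0.0359 to 0.560).

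The PVN minus SON difference was −0.76 (−1.47 to −0.06, adjusted p = 0.139) with all arrays and −0.28 (−0.57 to 0.02, adjusted p = 0.176) without SHR PVN 3. The PVN minus NIL difference was −0.38 (−1.04 to 0.29, adjusted p = 0.331, 55.1% called) and turned to 0.11 (−0.17 to 0.39, adjusted p = 0.511) without that array. The SON minus NIL difference was 0.39 in both cases. With all arrays it was not called (−0.32 to 1.09, adjusted p = 0.369, 48.9% called). With SHR PVN 3 left out of the shared estimate of the spread it was called (0.11 to 0.67, adjusted p = 0.0191, 52.8% called), and also when the SON and NIL arrays were fitted alone (adjusted p = 0.00628; over all alternatives 0.00628 to 0.488). The 4 SON values did not overlap the 5 NIL values.

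**Figure D2:**
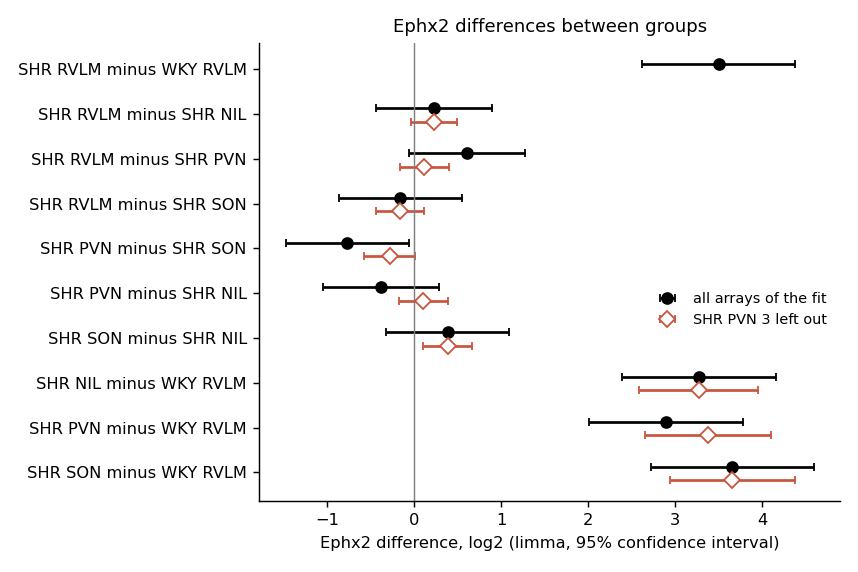
Ephx2 log2 differences with 95% confidence intervals from limma for the 10 comparisons, with all arrays of each fit (filled circles) and with SHR PVN 3 left out (open diamonds, where the fit holds it). The 4 differences from the WKY RVLM lie between 2.89 and 3.66, and the 6 between SHR structures lie between −0.76 and 0.61.

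Each other SHR structure was also set against the WKY RVLM. In these 3 comparisons strain and structure differ together, so their parts cannot be told apart, and they share the 5 WKY arrays. The NIL was higher by 3.27 (SE 0.430, limma adjusted p = 1.98e-07), where 67.8% of probe sets were called. The SON was higher by 3.66 (SE 0.456, adjusted p = 2.86e-07, 47.9% called). The PVN was higher by 2.89 (SE 0.430, adjusted p = 3.86e-06, 48.4% called), and by 3.38 (SE 0.352, adjusted p = 6.55e-09) without SHR PVN 3. With so large a share of probe sets called, a call of Ephx2 is near the background in each of the 3.

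Over the 18 SHR arrays other than SHR PVN 3, Ephx2 varied less than most probe sets, while the sums of some cell type markers varied widely and those of others did not. Its SD of log2 values was 0.233, against a median of 0.412 over 18625 probe sets, and 90.3% of them had a larger SD. With SHR PVN 3 included its SD was 0.615, and 24.2% had a larger one. The means of the 4 structures spanned 0.386 on the log2 scale without that array, against a median span of 0.824, and 86.8% of probe sets had a larger span. With it the span was 0.764 against a median of 0.805, and 53.2% had a larger one. SHR PVN 3 held the lowest Ephx2 value in SHR, so leaving it out narrows Ephx2 in particular. The other probe sets did not each lose their own most outlying array. Summed intensities of 14 oligodendrocyte markers ranged from 1411 to 1726 in the NIL and from 20347 to 24742 in the SHR RVLM. Those of 14 neuron markers ranged from 5290 to 5889 in the NIL and from 28835 to 34664 in the SHR RVLM, and those of 13 astrocyte markers from 4766 to 5238 and from 24906 to 30031. The sums of 14 microglia markers (1144 to 2196) and 13 endothelial markers (1783 to 3307) stayed in a narrower range over the same 18 arrays. In tissue of mixed cells, fewer expressing cells and less RNA per cell cannot be told apart.

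Between the strains in the RVLM the same marker sums overlapped. The neuron sum was 26308 to 31843 in WKY, the astrocyte sum 24378 to 30229 and the oligodendrocyte sum 19448 to 27635. Of the tested markers, each by its brightest probe set, limma called 0 of 14 for neurons, 0 of 13 for astrocytes and 0 of 13 for oligodendrocytes. It called 0 of 11 for microglia and 0 of 13 for endothelium. In this order 0, 1, 1, 1 and 1 had an unadjusted p under 0.05. The background over genes was 1.41% called. A dimmer probe set of the oligodendrocyte marker Mobp, named outside the rule, was called lower in SHR (−1.15, limma adjusted p = 4.17e-07). Its means were 624 ± 67.3 in SHR and 1355 ± 75.3 in WKY. The brightest Mobp probe set was not called (−0.10, limma adjusted p = 0.831). Of 9 meningeal and choroid plexus markers, 1 fell, the thyroid hormone carrier Ttr (−1.11, adjusted p = 0.0485), with a summed intensity of the list of 2766 to 4227 in SHR and 3375 to 5479 in WKY. Leaving out SHR RVLM 1, 2, 3 or 5 or WKY RVLM 2, 3, 4 or 5 ended that call (adjusted p 0.0643 to 0.132). The sum of 2 red blood cell markers barely overlapped, at 357 to 843 in SHR and 823 to 1025 in WKY. Hbb, the 1 tested and named outside the rule, differed by −0.62 (limma adjusted p = 0.165). The part of these markers in the Ephx2 difference was not tested.

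The Ephx2 value of SHR PVN 3 was then set beside other genes that differ by strain, a comparison chosen after that value was seen. In the RVLM 69 probe sets other than Ephx2 were called, had a log2 difference of 1 or more in size and did not overlap between strains. On SHR PVN 3, 35 of the 69 (50.7%) lay nearer the WKY than the SHR RVLM mean, against 14 to 20 (20.3% to 29.0%) on the other 13 SHR arrays outside the RVLM. Of the 30 chosen because they lay on the SHR side on all those 13 arrays, 11 lay on the WKY side on SHR PVN 3. They included the class I histocompatibility gene RT1-CE16, which was 53.6 on SHR PVN 3, 177 to 206 on the other PVN arrays and 18.9 to 44.3 in WKY. They also included the zinc finger gene Zfp597, at 26.7, against 237 to 292 on the other PVN arrays and 45.4 to 76.5 in WKY. The other 19 stayed on the SHR side, among them both probe sets of Pxmp4. Because the 30 were chosen by the other 13 arrays, none of the 13 offers a count to set beside the 11. SHR PVN 3 carried values on either side, and the cause was not tested.

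Of the other epoxide hydrolases, Ephx1 was the only one bright enough to test between the strains, and it was not called. It encodes the microsomal enzyme, which detoxifies reactive epoxides in the endoplasmic reticulum. In the SHR RVLM it was 75.8, 54.6, 71.5, 59.2 and 70.7, and in the WKY RVLM 61.9, 76.7, 58.7, 68.3 and 68.1. These groups overlapped throughout, with a difference of −0.04 on the log2 scale (SE 0.138, limma adjusted p = 0.951). In the 6 pairs of SHR structures limma called 14.7% (PVN against SON) to 66.3% (RVLM against NIL) of all probe sets with all 19 arrays. Ephx2 was called in 0 pairs with SHR PVN 3 and in 1 without it. Ephx1 was called in 5 of the 6 in both cases, all but PVN against SON (−0.29, limma adjusted p = 0.259 with all arrays). Whether Ephx1 and Ephx2 differ in this was not tested. It was 558 ± 66.7 (SD, n = 5) in the NIL, 161 ± 48.6 (n = 4) in the SON, 126 ± 14.4 (n = 5) in the PVN (130.3 ± 12.65 without SHR PVN 3, n = 4) and 66.4 ± 9.01 (n = 5) in the RVLM. The RVLM lay under the NIL by 2.98 on the log2 scale (SE 0.155, adjusted p = 2.00e-13), and Ephx1 on SHR PVN 3 (109.4) was close to the next PVN array (113.6).

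Ephx4, whose product is a less studied relative, was dim on both of its probe sets and under the filter in the strain comparison. Its brighter probe set was 25.0 ± 0.93 (SD, n = 5) in the SHR RVLM and 22.8 ± 3.48 (n = 5) in WKY, and the other was 17.7 ± 6.31 and 18.7 ± 3.53. Ephx3 had 0 probe sets with its single symbol.

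**Figure D3:**
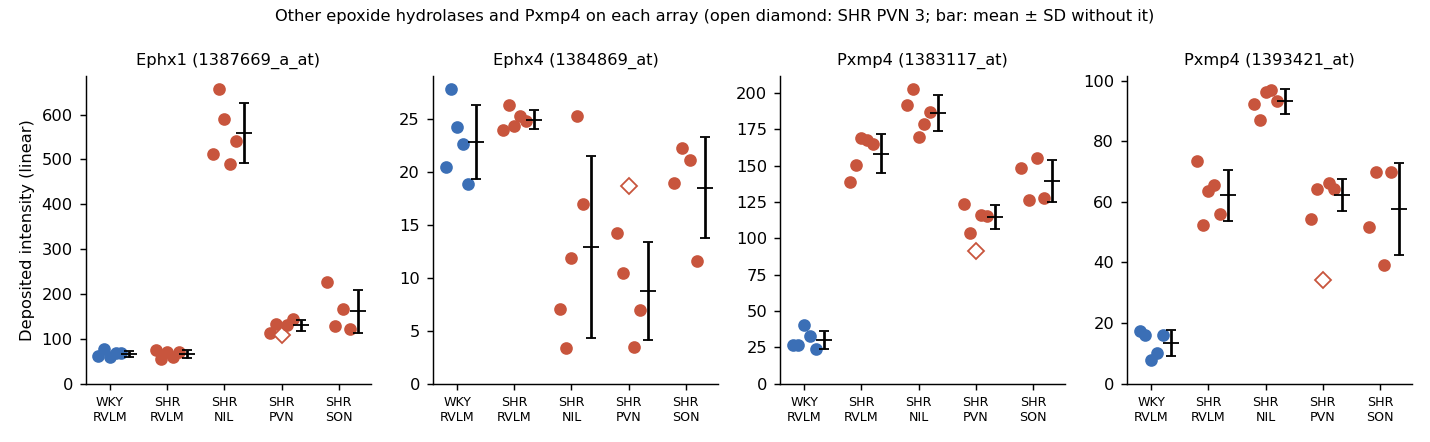
Deposited linear intensity on each array of Ephx1, the brighter Ephx4 probe set and both Pxmp4 probe sets, with the mean and SD of each group beside its points; each panel has its own axis from 0. Ephx1 is highest in the NIL (490.0 to 656) and overlaps between strains, whereas both Pxmp4 probe sets are higher in every SHR array than in WKY.

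Pxmp4, a peroxisomal membrane protein gene, had the pattern nearest to Ephx2 by correlation over the 24 arrays. Its brighter probe set was 138.6, 150.6, 169.2, 167.7 and 165.0 in the SHR RVLM, and 26.8, 26.9, 40.2, 32.6 and 24.2 in WKY. The difference was 2.38 on the log2 scale (SE 0.141, limma adjusted p = 2.45e-08), and its other probe set gave 2.24 (SE 0.237, adjusted p = 2.24e-05). On SHR PVN 3 the brighter probe set was 91.1, under the other PVN arrays (103.9 to 123.7) but above every WKY array, unlike Ephx2. The other probe set was 34.3 there, against 54.3 to 66.1 on the other PVN arrays and 7.72 to 17.3 in WKY. Between SHR structures Pxmp4 differed from Ephx2. The SON lay under the NIL by 0.41 and 0.72 on its 2 probe sets (limma adjusted p = 0.0107 and 0.00262, 48.9% called). Ephx2 was higher in the SON by 0.39, not called with all arrays. RVLM minus NIL and RVLM minus SON also had the opposite sign to Ephx2 on both Pxmp4 probe sets, the brighter given first. RVLM minus NIL was −0.14 and −0.50 (limma adjusted p = 0.300 and 0.0148, 66.3% called). RVLM minus SON was 0.26 and 0.22 (limma adjusted p = 0.0956 and 0.355, 45% called). With all arrays, differences that use the PVN had the same sign for Ephx2 and the brighter Pxmp4 probe set. On the dimmer one PVN minus SON was 0.0028, against −0.76 for Ephx2. Without SHR PVN 3, PVN minus NIL was 0.11 for Ephx2. Both Pxmp4 probe sets then stayed lower in the PVN (mean log2 6.81 and 5.925) than in the NIL (7.482 and 6.485).

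The pathway around Ephx2 was next compared between the strains in the RVLM, each gene by its brightest probe set. Genes that make EETs come first. Of the 16 cytochrome P450 epoxygenase and partner genes on the array 6 were tested, and limma called 0 of them, with 0 at an unadjusted p under 0.05 and a median log2 difference of −0.07. The median over all 10415 genes was −0.03, and 1.41% were called (0.518% higher and 0.893% lower). An unadjusted p under 0.05 was found for 955 of the 10415, the background for such counts in each list. Cyp2j3 and Cyp2j4, epoxygenases of the 2J family named outside the rule for named genes, were 102 ± 14.2 and 51.5 ± 6.87 in SHR (SD, n = 5) and 108 ± 7.14 and 52.9 ± 5.37 in WKY. Of 7 tested omega-hydroxylase genes of the 4A, 4F and related families, which make the vasoconstrictor 20-HETE and like products, 0 were called and 2 had an unadjusted p under 0.05 (median −0.06).

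Genes that release arachidonic acid or return it to membranes held 2 calls among 20 tested (median −0.02), with 5 at an unadjusted p under 0.05. Pla2g12a, a secreted phospholipase A2, rose by 0.74 (limma adjusted p = 0.0286), at 108 ± 2.02 in SHR against 65.5 ± 16.02 in WKY. Acsl3, which attaches long-chain fatty acids to coenzyme A, fell by 0.40 (limma adjusted p = 0.0360), with 738 ± 66.9 and 953 ± 44.4. Leaving out SHR RVLM 1, 3, 4 or 5 or WKY RVLM 2 or 3 ended the first call (adjusted p 0.0557 to 0.0806). Leaving out SHR RVLM 1, 3 or 4 or WKY RVLM 1, 2, 4 or 5 ended the second (adjusted p 0.0549 to 0.120).

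The rival branches of arachidonate metabolism were next. Of 10 tested cyclooxygenase-branch genes 1 fell, with 2 at an unadjusted p under 0.05 and a median of −0.20. Ptgr1, a reductase that inactivates prostaglandins and leukotriene B4, fell by 1.21 (SE 0.207, limma adjusted p = 0.00343). Its means were 40.4 ± 11.1 for SHR against 88.7 ± 14.0 for WKY (SD, n = 5 each). Of 4 tested lipoxygenase-branch genes 0 were called, with 0 at an unadjusted p under 0.05 (median −0.22). Of 10 tested genes through which EETs act 0 were called, with 0 at an unadjusted p under 0.05 (median −0.09). Among these Kcnma1, the calcium-activated potassium channel, was 68.7 ± 5.31 in SHR and 59.4 ± 8.19 in WKY (0.19, SE 0.133, adjusted p = 0.722), named outside the rule.

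**Figure D4:**
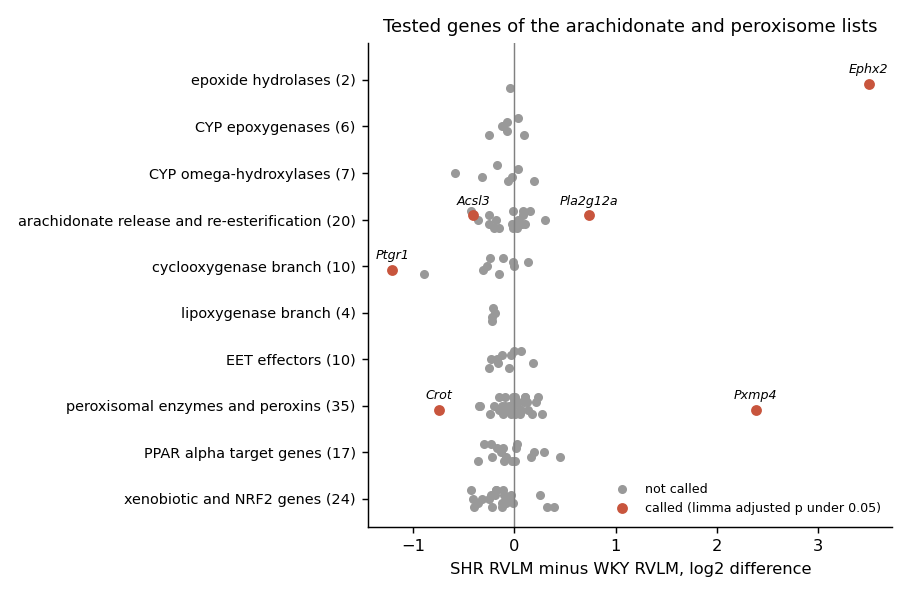
Log2 difference between SHR and WKY RVLM for each tested gene of 10 lists, with the number tested in parentheses; red points were called by limma. Ephx2 (3.50) and Pxmp4 (2.38) lie far to the right of their lists, and the uncalled genes gather around 0.

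Peroxisomal genes were included because part of the enzyme resides there. Of 35 tested, 1 rose (Pxmp4) and 1 fell, with 4 at an unadjusted p under 0.05 and a median of 0.00. The one that fell was Crot, the carnitine octanoyltransferase that helps shortened fatty acids leave the peroxisome. It was 208 ± 18.01 in SHR and 342.5 ± 32.7 in WKY (SD, n = 5 each), a difference of −0.75 (SE 0.111, limma adjusted p = 0.000807). Of 17 tested targets of PPAR alpha, a receptor that governs peroxisomal fatty acid genes, 0 were called and 2 had an unadjusted p under 0.05 (median −0.08). Of 24 tested xenobiotic and NRF2 genes 0 were called and 6 had an unadjusted p under 0.05 (median −0.12).

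The genes beside Ephx2 on the chromosome were looked at next. Gene order was taken from the start positions in the RefSeq table of the GRCr8 assembly, and distances between genes were not used. Limma called 0 of the 10 nearest tested genes on either side (20 in all), with 0 at an unadjusted p under 0.05. With 1.41% of all genes called, 0 calls among 20 genes is near the background. Their log2 differences lay between −0.36 and 0.24, with a median of 0.01. The next coding gene after Ephx2, Chrna2 (a nicotinic acetylcholine receptor subunit), was 25.8 ± 9.57 in SHR and 30.7 ± 6.73 in WKY (SD, n = 5 each). The coding gene before it, Adam2, lay under the filter, with 21.7 ± 5.06 and 19.1 ± 2.82. Clu, the abundant extracellular chaperone clusterin, lies a few coding genes before Ephx2 and was 1520 ± 83.0 and 1715 ± 156.8 (−0.20, SE 0.105, adjusted p = 0.595).

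**Figure D5:**
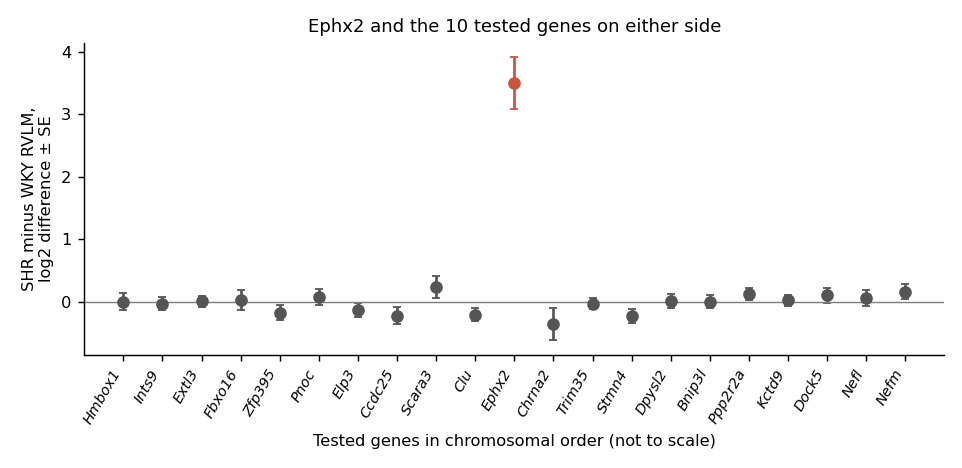
Log2 difference between SHR and WKY RVLM (with its SE) for Ephx2 and the 10 nearest tested genes on either side, in chromosomal order and not to scale. Ephx2 lies at 3.50 and its 20 neighbours lie between −0.36 and 0.24.

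The genes whose levels followed Ephx2 most closely were ranked by Pearson's r of log2 values over the 24 arrays, among 10573 genes. These correlations describe arrays that share 5 groups and 2 strains, so they are given without a test. The 5 highest were Pxmp4 (0.896), the chromatin-remodelling subunit gene Actr8 (0.827), the RNA methyltransferase gene Mettl2 (0.818), RT1-CE16 (0.810) and Clasrp (0.808). The 3 lowest were Haghl (−0.861), Rragd (−0.815) and the condensin subunit gene Ncaph (−0.814). Within the 19 SHR arrays alone these r values lay closer to 0, at 0.409 for Pxmp4, 0.039 for Actr8 and 0.449 for RT1-CE16. Without SHR PVN 3 they were −0.014 for Pxmp4, −0.183 for Actr8 and −0.392 for RT1-CE16, so the positive values rest on that array. The 5 highest within SHR were Zfp597 (0.916), Mfsd4b1 (0.892), Mrm2 (0.870), Tpgs1 (0.860) and Cwc25 (0.856). All 5 were lower on SHR PVN 3 than on any other array of either strain, and without it their r fell to between 0.475 and 0.609. Mrm2, for instance, was 20.3 on it and 65.1 to 83.5 in WKY, whereas Ephx2 on it lay inside the WKY range.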

How the data were processed

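Total RNA from pools of 5 rats was amplified and hybridised to Affymetrix GeneChip arrays, per the labels' protocols and the series' design text. The values deposited by the authors are intensity, a linear probe set signal. Software: GCOS 1.2, per the submitters' processing notes; neither its settings nor detection calls were found in the sources read. Every column had a 2% trimmed mean of 100.0. After a log2 step without pseudocount, arrays were brought to a common median. The 31042 probe sets without controls were filtered at the 40th percentile of mean log2 within each fit, leaving 18625. Of the 31042, 20826 had 1 symbol, 436 several and 9780 none. Differences were tested with lmFit and eBayes (intensity trend) of limma 3.58.1 in R 4.3.3, with Benjamini-Hochberg adjustment over all probe sets and calls at 0.05. The strain comparison used 10 arrays, those between SHR structures 19, and those of other SHR structures against the WKY RVLM 24. A gene was represented by its brightest probe set. The code was tested on simulated data.

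Ephx2, the gene lists and the tests were chosen with earlier results of these data known. Named genes were Ephx1, Ephx3, Ephx4 and Pxmp4, at most 4 called members of each list, called neighbours, and those with the most similar pattern. Genes named otherwise are said to be so or serve to check labels. Marker lists for red blood cells (1 tested, 0 called, 1 at an unadjusted p under 0.05), pituitary (5, 0 and 1) and structures (6, 0 and 0) were also counted. Arrays are stated to be independent biological replicates; whether 1 rat gave more than 1 structure was not found in the labels. Same-numbered arrays of different groups did not deviate together (median r −0.018 over 46 pairs, range −0.119 to 0.166), so numbers were not taken as pairs. Alternatives were other scalings, pseudocounts, filters, variance settings, array weights, a replicate block, other arrays in the fit and each array left out. Promoter and protein sequences of Ephx2 were not used here.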

Additional observations from a re-analysis of the deposited data

Results flagged for a closer look

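Within each group of 4 or 5 arrays, the array farthest from the others was compared with Dixon's critical value on the log2 scale, for the probe sets of Ephx2, Ephx1, Ephx4 and Pxmp4. Of 30 such groups 2 passed, and chance passes about 1 in 20. Both were the PVN with SHR PVN 3 lowest. Ephx2 was 19.9 on that array, and its gap to the next array was 0.727 of the group's range, just above the critical value of 0.71. The dimmer Pxmp4 probe set was 34.3 on it, with a gap of 0.831 of the range. The brighter Pxmp4 probe set did not set SHR PVN 3 apart.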

How the results depend on the processing

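Over the 10 Ephx2 comparisons 204 alternatives were computed, of which 199 kept the direction and the side of the threshold. The 4 differences from the WKY RVLM kept both in all of theirs, with values of 0.96 to 3.93. The strain difference ran from 3.06 to 3.77 with each array left out. At the 60th percentile filter Ephx2 was not tested in the strain comparison, because its mean lay under it. SON minus NIL ran from 0.34 to 0.45 with each array left out. At 0.39 in each case it became called with only the 2 groups fitted (adjusted p = 0.00628) and without SHR PVN 3 (adjusted p = 0.0191), as the residual spread fell (SE 0.109 and 0.135 against 0.341). RVLM minus PVN ran from 0.12 to 0.84 with each array left out and was called without SHR PVN 1. PVN minus NIL ran from −0.61 to 0.11 with each array left out, and was 0.11 without SHR PVN 3 and also with only those 2 groups fitted without it, an alternative added after seeing the data, as was leaving that array out of the other SHR fits. With the replicate block the strain difference was 3.50 (adjusted p = 0.000451), and the block changed no call of Ephx2; the array numbers share a number only, and 4 of 24 arrays correlated best with an array of their own number. Ephx1 ran from −0.10 to 0.05 between the strains with each array left out, positive without SHR RVLM 2 (0.051) and WKY RVLM 2 (0.0013). Acsl3 also lost its call with the replicate block (adjusted p = 0.0509), and Acsl3, Pla2g12a and Ttr lost theirs with no filter and without the intensity trend (adjusted p 0.0567 to 0.122). With all 24 arrays in the fit Acsl3 and Ttr lost theirs (0.229 and 0.287), and with arrayWeights Ttr (0.144). Pxmp4, Crot and Ptgr1 kept theirs in all alternatives run. Taking the mean of a gene's probe sets left 7 called list members, as in the report. The count of called probe sets for PVN against SON was 2740, and 4618 with arrayWeights, 1386 with only those groups and 1616 without SHR SON 3. Low signal in WKY limits the size of the strain difference.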

Other observations

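Over the 18 SHR arrays without SHR PVN 3, where Ephx2 itself varied little, a different set of genes followed it most closely. The 5 highest Pearson's r were those of Tmem161b (0.827), the transfer RNA methyltransferase gene Trmt61a (0.822), the glycolytic enzyme gene Pgm1 (0.819), Gramd2b (0.819) and the mitochondrial thioredoxin reductase gene Txnrd2 (0.818). Their mean intensities were higher in the SON than in the NIL, for instance 128 against 84.2 for Trmt61a and 444 against 378 for Pgm1. With the 5 WKY arrays added, and SHR PVN 3 still out, their r lay between −0.334 and 0.0184.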
